A study of Mus musculus with 17 samples.

Results

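The expression of 10 transcriptional regulators of mitochondrial metabolism was followed across the 4 groups of a bulk RNA-sequencing experiment on the pressure-overloaded mouse heart. The genes were chosen by symbol: the coactivators Ppargc1a, Ppargc1b and Perm1, the estrogen-related receptors Esrra, Esrrb and Esrrg, the peroxisome proliferator-activated receptors Ppara and Ppard, the retinoid X receptor Rxra and the mitochondrial transcription factor Tfam. All 10 were found among the 21798 gene symbols measured, and all 10 were among the 16218 that reached 0.5 CPM (read counts scaled to the total of each library) in at least 3 libraries. Their lowest value in any library was 3.40 CPM, for Ppara.

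The tissue was the apex of the left ventricle of male C57Bl/6 J mice that were 7 to 8 weeks old at surgery and were killed 3 weeks later. Transverse aortic constriction (TAC), a suture that narrows the aorta and raises the load on the left ventricle, or a Sham operation without the ligature was followed from the week after surgery by gavage with 29P at 50 µg/kg, an orally given RGD mimetic directed at the αvβ3 integrin, or with saline vehicle (Veh). The libraries comprised 5 Sham Veh (S5, S6, S13, S19, S20), 3 Sham 29P (S4, S14, S15), 3 TAC Veh (S2, S12, S16) and 6 TAC 29P mice (S1, S3, S8, S9, S11, S18). The study states that a TAC Veh library which clustered with Sham mice had been taken out before the analysis, so the TAC Veh group was in part chosen on expression. Estimated depth was 14.2 to 23.8 M reads per library (median 20.4 M). Ventricular cardiomyocyte markers were abundant in all 17 libraries (summed CPM 33620 to 50720 over 8 genes), and the summed atrial markers lay between 6.98 and 39.9 CPM in 14 libraries but at 1785 to 2794 CPM in S18, S19 and S20. Of the adipocyte markers, Adipoq, Plin1 and Cidec reached at most 2.298, 1.07 and 3.85 CPM and Cidea was at 13.4 to 24.2 CPM. Summed fibroblast markers were 647 to 1151 CPM in Sham and 995.4 to 2115 CPM in TAC libraries, and summed endothelial markers 1033 to 2001 and 1435 to 2217 CPM. Summed macrophage markers were 66.4 to 160 CPM in Sham and 177 to 312 CPM in TAC libraries, without overlap on the CPM scale. Summed red blood cell markers were 561.5 to 2463 CPM in Sham, 3082 to 4992 CPM in TAC Veh and 1036 to 4151 CPM in TAC 29P libraries. The animal numbers in the labels fall into 4 runs (libraries S1 to S11, S12 to S14, S15 to S16 and S18 to S20), and the labels do not say whether these were batches.

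The adult heart obtains most of its ATP from fatty acid oxidation in mitochondria. PGC-1α, the product of Ppargc1a, has no DNA-binding domain of its own. It is recruited by nuclear receptors and by the nuclear respiratory factors to the genes of oxidative phosphorylation and fatty acid oxidation, and PGC-1β, the product of Ppargc1b, does so at an overlapping set of genes. PPARα and PPARδ (from Ppara and Ppard) bind fatty acids and pair with RXRα (from Rxra) on genes of fatty acid uptake and oxidation. The estrogen-related receptors ERRα, ERRβ and ERRγ (from Esrra, Esrrb and Esrrg) bind no known natural hormone and depend on PGC-1 coactivators. Perm1 is a muscle protein induced by PGC-1 and ERR, and TFAM packages mitochondrial DNA and starts its transcription.

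The promoter stretches of 2 of these genes are shown because the level of Ppargc1a ranged most widely of the 10 between libraries and because Perm1 is a textbook target of the receptors in the list. They were taken from RefSeq windows on GRCm38.p6 (250 bases before to 50 after the start), of which 14 were found for 9 of the 10 genes, and only bases ahead of every annotated exon of the gene are printed. Capitals mark the nuclear receptor element AAGGTCA, here on the opposite strand.
Ppargc1a, minus strand, chr5:51567727-51567975: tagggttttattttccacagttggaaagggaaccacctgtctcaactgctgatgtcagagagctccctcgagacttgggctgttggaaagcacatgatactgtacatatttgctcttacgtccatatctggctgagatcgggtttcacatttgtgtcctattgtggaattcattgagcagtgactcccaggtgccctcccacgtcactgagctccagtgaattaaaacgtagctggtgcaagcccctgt
Perm1, plus strand, chr4:156215677-156215867: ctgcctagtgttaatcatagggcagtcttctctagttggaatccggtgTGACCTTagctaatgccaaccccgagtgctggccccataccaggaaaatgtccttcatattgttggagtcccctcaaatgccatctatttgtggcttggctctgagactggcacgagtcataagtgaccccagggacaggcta
The letters AAGGTCA were present on either strand in 4.72% of all 32851 RefSeq windows, and among the windows of the 10 genes in that of Perm1 and in 1 of 2 windows of Rxra. The letters GCATGCGC, the core of NRF-1 sites, occurred in the windows of Ppara and Esrra and in 2.71% of all windows. The letters CCGGAAGT, found in NRF-2 sites, occurred in the window of Tfam and in 3.89% of all windows. The letters TGACGTCA of the cyclic AMP response element (1.79% of all windows) and the longer receptor element TCAAGGTCA (0.423%), which contains AAGGTCA, were in none of the 14 windows, nor was AGGTCA repeated after 1 base (0.0396%), the arrangement bound by PPAR with RXR. A match is a match of letters only.

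Levels of different genes were compared as CPM per kilobase of annotated exon, over the union of exons in GENCODE vM21. Perm1 stood highest at a mean of 53.9 CPM per kb, and its lowest library (35.1) lay above the highest library of Esrra (24.5), the next gene in order, but below the highest library of Ppargc1a (56.0, S20), where Ppargc1a stood above Perm1. Esrra (17.3), Ppargc1a (16.2) and Tfam (9.70) followed, and Rxra (7.86), Esrrg (5.77), Ppara (3.13), Esrrb (2.79), Ppard (2.53) and Ppargc1b (2.22) were lower. The order of several neighbours was not fixed. The mean level of Ppargc1a per kb was above that of Esrra in Sham Veh (22.7 and 15.6) and Sham 29P (21.5 and 16.3) and below it in TAC Veh (9.73 and 17.7) and TAC 29P (11.2 and 19.1). Esrra exceeded Ppargc1a in 12 of 17 libraries, Ppara exceeded Esrrb in 11, Esrrb exceeded Ppard in 11 and Ppard exceeded Ppargc1b in 10. Thus Esrra was the most abundant estrogen-related receptor and Esrrb the least, and Ppara and Ppard were of similar level per length.

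The genes lie on different chromosomes of mm10: Ppargc1a on chromosome 5 from 51454250 to 51567726, Ppargc1b on 18 from 61298136 to 61400431, Perm1 on 4 from 156215868 to 156221307 and Esrra on 19 from 6910977 to 6921840. Esrrb is on chromosome 12 from 86361117 to 86521628, Esrrg on 1 from 187608791 to 188214885, Ppara on 15 from 85734983 to 85802819, Ppard on 17 from 28232700 to 28301474, Rxra on 2 from 27676440 to 27762957 and Tfam on 10 from 71225464 to 71238280. Exons of Esrra share 73 bases (1.66% of its exon bases) with the opposite-strand gene Trmt112, which itself was at 3.37 to 7.56 CPM. Whether reads were counted by strand is not given in the sources used here.

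**Figure D1:**
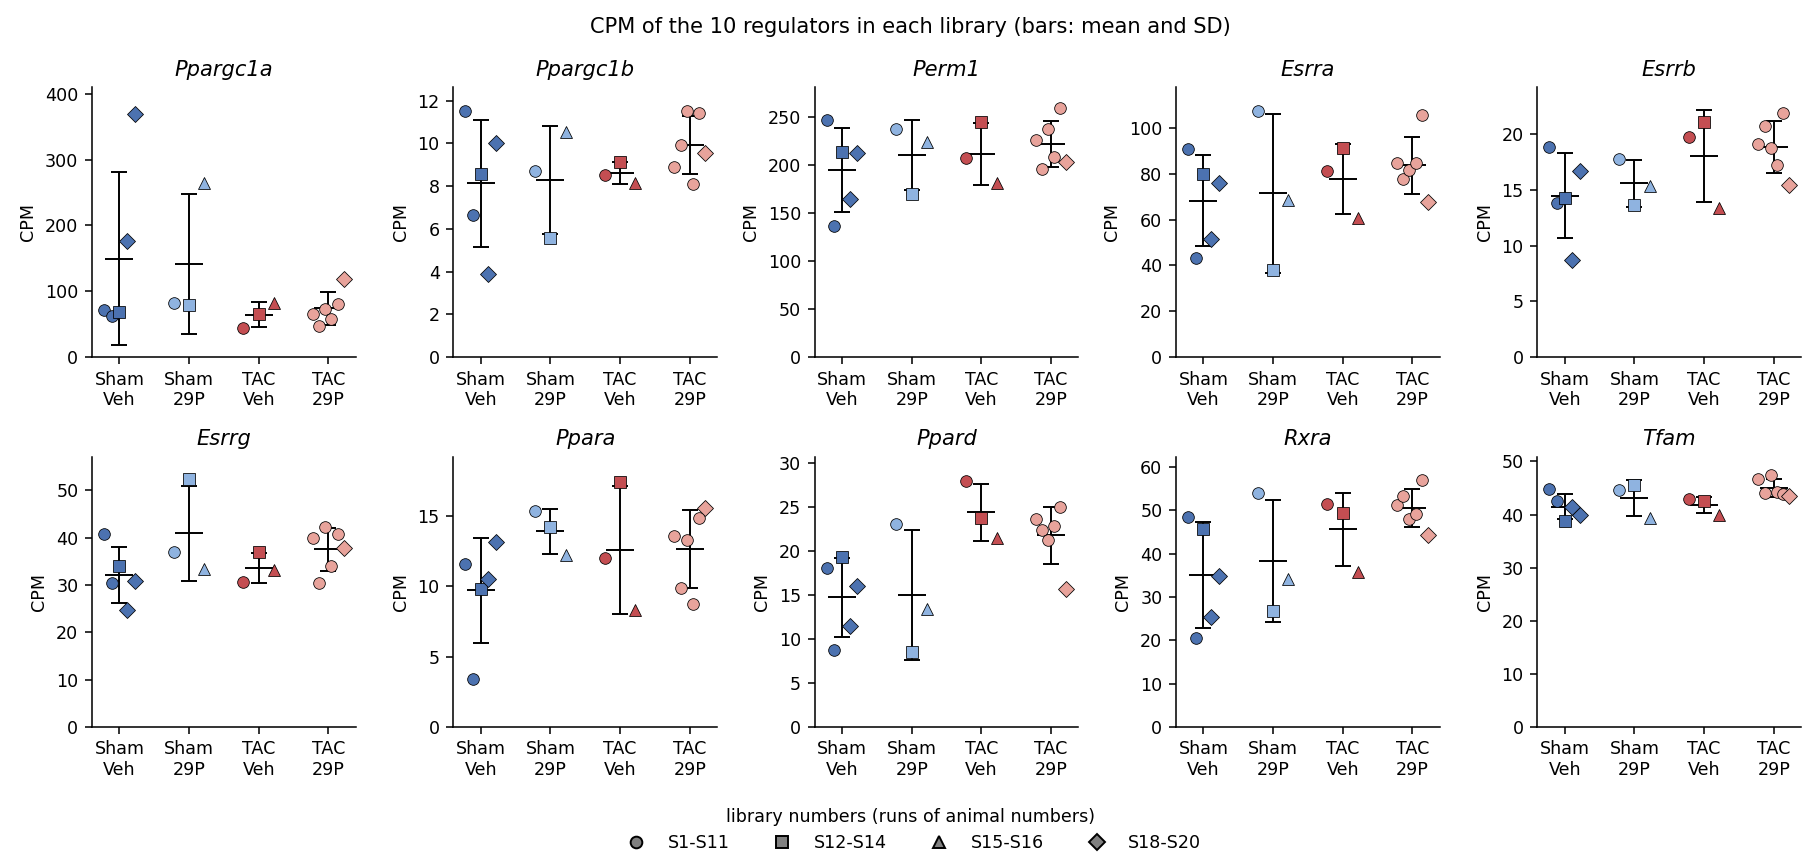
CPM (linear axes from 0) of the 10 regulators in each of the 17 libraries, grouped by surgery and treatment, with symbols for the runs of animal numbers and bars for the mean and SD. Ppargc1a reached 176 to 369 CPM in 3 Sham libraries, whereas Tfam stayed between 38.8 and 47.5 CPM in all 17.

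Pressure overload was asked about first, with TAC Veh against Sham Veh and TAC 29P against Sham 29P. Changes are log2 fold changes of CPM, estimated by limma in a single fit of 16218 genes that gave each of the 4 groups its own mean, and a gene was called at a Benjamini-Hochberg adjusted p of 0.05 or less over all genes. In TAC Veh against Sham Veh, 1 of the 10 regulators (Ppard) was called higher and 0 lower, where 22.5% of all genes tested were called higher and 1.91% lower. Without adjustment the same gene was the only regulator with p under 0.05. In TAC 29P against Sham 29P 0 of 10 were called in either direction, against 31.4% of all genes higher and 1.12% lower. Ppard was again the regulator with the lowest unadjusted limma p, of 0.0285, and the only 1 of the 10 under 0.05. With both treatments averaged, 2 of 10 were called higher (Ppard and Rxra) and 0 lower, against 49.4% higher and 3.08% lower of all genes.

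These counts depend on how the libraries are scaled. CPM divides by the total of a library, and the 16 mitochondrial-encoded genes of the file took 29.1 to 40.0% of that total in Sham but 23.6 to 29.4% in TAC libraries. On the CPM scale the median gene was 0.35 higher on the log2 scale in TAC Veh than in Sham Veh, 0.37 higher in TAC 29P than in Sham 29P and 0.36 higher over both. Scaling by the trimmed mean of M values (TMM), which equalises the bulk of genes between libraries, moved the median surgery change down by 0.34 to 0.36. The median change of the 10 regulators was 0.20 on the CPM scale and −0.14 on the TMM scale in TAC Veh against Sham Veh, below the median of all genes on each scale (0.35 and 0.01). Under TMM, 0 regulators were called in either single comparison, where 3.86% of all genes were called higher and 5.80% lower in Veh mice and 5.76% higher and 4.98% lower in 29P mice. Over both treatments 3 of 10 were then called lower (Ppargc1a, Esrrg and Tfam) and 0 higher, against 13.5% of all genes called lower.

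**Figure D2:**
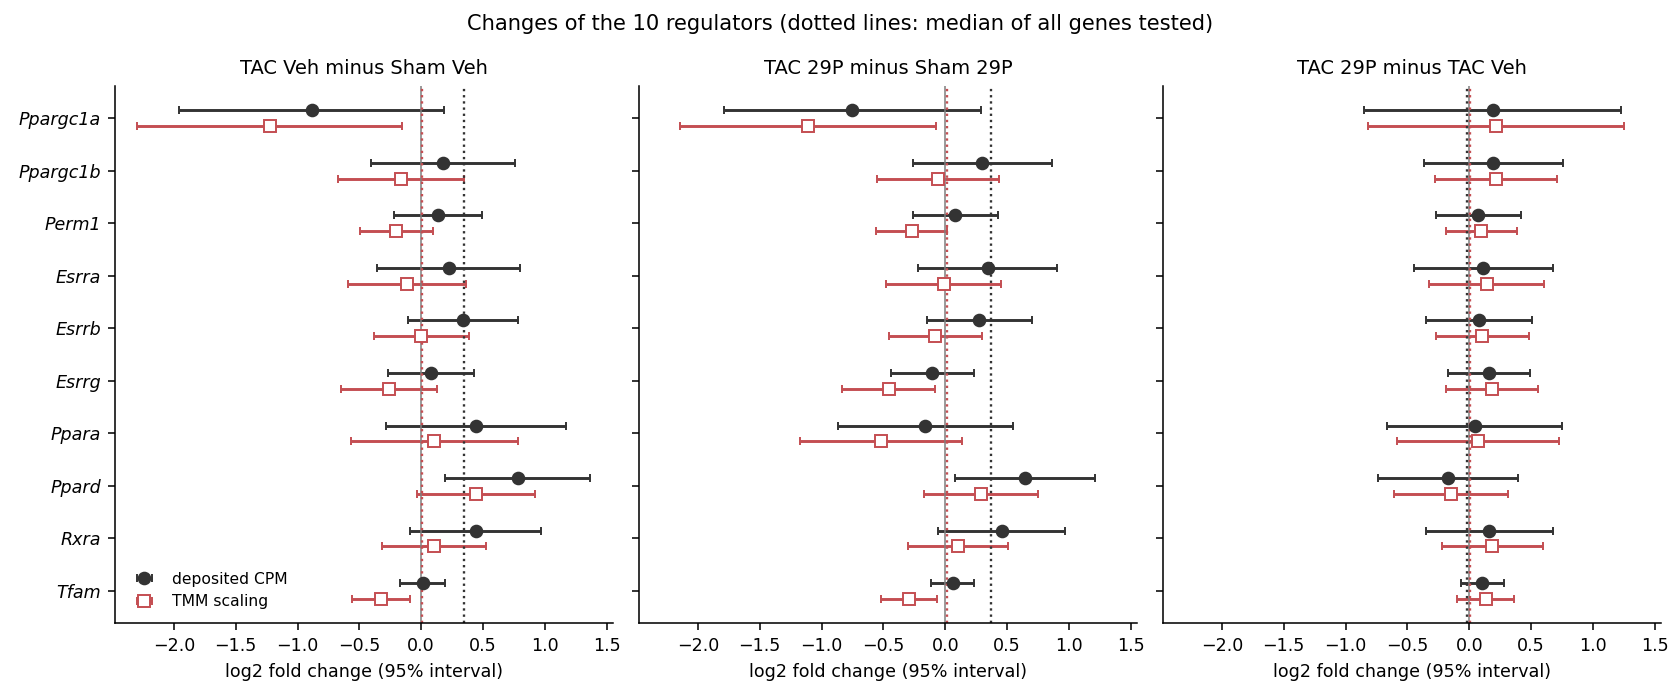
Log2 fold changes of the 10 regulators with 95% intervals on the deposited CPM scale (filled circles) and on the TMM scale (open squares), with dotted lines at the median of all genes tested on each scale. Ppargc1a lies furthest to the left in both surgery comparisons, Ppard furthest to the right, and in TAC 29P against TAC Veh every interval spans 0.

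Ppard showed the largest rise. Its CPM was 18.04, 8.73, 19.3, 11.5 and 16.1 in the Sham Veh libraries S5, S6, S13, S19 and S20. It was 23.1, 8.53 and 13.4 in Sham 29P (S4, S14, S15) and 27.9, 23.8 and 21.5 in TAC Veh (S2, S12, S16). The 6 TAC 29P libraries had a lowest value of 15.7, a median of 22.6 and a highest of 25.1 CPM. All 3 TAC Veh libraries lay above all 5 Sham Veh libraries, as was so for 27.6% of all genes tested, and TAC 29P overlapped Sham 29P through S4. The change in Veh mice was 0.78 (standard error 0.28, 1.72-fold, limma adjusted p = 0.0490). An exact two-sided permutation test gave p = 0.0536, where the 56 divisions of the libraries allow 0.0179 at the smallest. In 29P mice it was 0.64 (standard error 0.27, limma adjusted p = 0.0730). Over both treatments it was 0.71 (standard error 0.19, limma adjusted p = 0.00632), and 9 of 9 TAC libraries lay above the Sham median. The median gene was 0.36 higher over both treatments on this CPM scale, and the share of all genes with such a count was not computed. TAC exceeded Sham in each run of animal numbers, by 0.63, 0.89, 0.69 and 0.21 on the log2 scale. These differences pooled the treatments, each run after the first held 1 TAC library, and the third compares 1 library with 1. On the TMM scale the change in Veh mice was 0.44 and that over both treatments 0.37, neither called (limma adjusted p = 0.221 and 0.0907), whereas with totals that left out the mitochondrial-encoded genes it was 0.55 over both treatments and called (limma adjusted p = 0.0237). With the runs in the fit the change in Veh mice was 0.79 and not called (limma adjusted p = 0.0910). The call in Veh mice was also lost when any of S6, S19, S20, S2, S12 or S16 was left out, with changes of 0.61 to 0.87 (limma adjusted p = 0.0524 to 0.193), and the call over both treatments held without any single library. Because the tissue is a mixture, more cells that express a gene and more RNA per cell cannot be told apart. The summed macrophage markers given above were higher in every TAC than in every Sham library on the CPM scale. Divided by the TMM factors, the TAC library S18 (176.9 CPM, factor 1.128) lay below the Sham library S4 (160 CPM, factor 0.966). On the CPM scale, where the median gene was also higher after TAC, fibroblast and endothelial sums ran higher in TAC libraries with overlap. Divided by the TMM factors, the highest endothelial sum was that of the Sham library S6 (2001 CPM, factor 0.7893). Red blood cell sums were higher in TAC Veh than in all Sham libraries. The part of these cells in the change of Ppard was not tested.

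Rxra, the partner of the PPARs, was at 48.5, 20.6, 45.8, 25.3 and 34.8 CPM in Sham Veh (S5, S6, S13, S19, S20), 54.0, 26.9 and 34.1 in Sham 29P (S4, S14, S15) and 51.5, 49.5 and 35.8 in TAC Veh (S2, S12, S16). TAC 29P libraries had 44.4 to 57.0 CPM with a median of 50.2. TAC and Sham libraries overlapped, with 9 of 9 TAC libraries above the Sham median on the CPM scale, where the median gene was 0.36 higher. Over both treatments Rxra was 0.45 higher after TAC on the log2 scale (standard error 0.18, 1.36-fold, limma adjusted p = 0.0405). All 24310 divisions of the libraries into 9 and 8 gave an exact permutation p of 0.0134, also on the CPM scale. The call was lost on the TMM scale (0.10, limma adjusted p = 0.610), with the runs in the fit (0.41, limma adjusted p = 0.0716), without S6 and S14 (0.25, limma adjusted p = 0.191), and when any of S1, S2, S3, S6, S9, S11, S12, S14, S15 or S19 was left out (0.34 to 0.45, limma adjusted p = 0.0514 to 0.131).

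Ppargc1a moved the other way and differed most between libraries, by 8.28-fold from lowest to highest. Its CPM was 72.1, 62.7, 68.3, 176 and 369 in Sham Veh (S5, S6, S13, S19, S20) and 81.9, 78.8 and 265 in Sham 29P (S4, S14, S15). In TAC Veh it was 44.6, 65.0 and 82.8 (S2, S12, S16), and in TAC 29P it ranged from 47.6 to 119 with a median of 69.5 and the highest value in S18. The 3 highest libraries, S20, S15 and S19, were Sham libraries from the last 2 runs of animal numbers, and the 5 other Sham libraries (62.7 to 81.9 CPM) lay within the range of the TAC libraries. The change was −0.89 in Veh mice (standard error 0.51, limma adjusted p = 0.195) and −0.75 in 29P mice (standard error 0.49, limma adjusted p = 0.240). Over both treatments it was −0.82 (standard error 0.35, limma adjusted p = 0.0605), and 6 of 9 TAC libraries lay below the Sham median. The exact permutation test took all TAC against all Sham libraries with treatments pooled, a difference of −0.78, and gave p = 0.0492. Without S20 the change in Veh mice was −0.47, without the 3 libraries rich in atrial transcripts −0.12, and without S15 that in 29P mice was −0.18, none of them called. TAC was below Sham in each run, by −0.25 in S1 to S11, −0.17 in S12 to S14, −1.68 in S15 and S16 and −1.10 in S18 to S20, and the third of these compares 1 library with 1. These differences pooled the treatments, and each run after the first held 1 TAC library.

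When the 4 runs entered the fit as a term, the difference over both treatments became −0.64 (standard error 0.20, limma adjusted p = 0.0160), and Ppargc1a was then 1 of 10 regulators called lower, against 3.11% of all genes. On the TMM scale it was −1.17 (standard error 0.35, limma adjusted p = 0.0215). Restricted to libraries S1 to S14 the difference was −0.33 (limma adjusted p = 0.0792), and without the 3 libraries rich in atrial transcripts −0.51 (limma adjusted p = 0.0923). Without S15 alone it was −0.53 (limma adjusted p = 0.208), and without S20 alone −0.61 (limma adjusted p = 0.0819). It was called when any of S4, S5, S6, S13, S14 or S18 was left out (−0.89 to −0.97, limma adjusted p = 0.0391 to 0.0471). The sign was negative in each of these fits. Of the 4 highest libraries, S18, S19 and S20 carried atrial transcripts and S15 did not (16.4 CPM summed). The part of atrial tissue in these values was not tested.

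The genes whose deviations from the group means most resembled those of Ppargc1a over the 17 libraries were Fkbp5, a co-chaperone of steroid receptors (Pearson's r = 0.945, Spearman's rho = 0.907), Agt, angiotensinogen (0.938 and 0.917), and Map3k6, a protein kinase (0.936 and 0.882). These are descriptions over libraries that differ in depth, run of animal numbers and atrial transcripts, whose part in the resemblance was not tested. Fkbp5 was at 8.67 to 12.2 CPM in the 5 Sham libraries of the first 2 runs, at 57.1 CPM in S19, 104 in S20 and 88.8 in S15. Library S16, a TAC Veh library of the third run, also had high Fkbp5 (63.9 CPM). Its 82.8 CPM of Ppargc1a was below those Sham libraries but the highest of TAC Veh, a deviation of 0.41 from the group mean. In S18, the TAC 29P library of the fourth run, Fkbp5 was at 32.7 and Ppargc1a at 119 CPM.

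**Figure D3:**
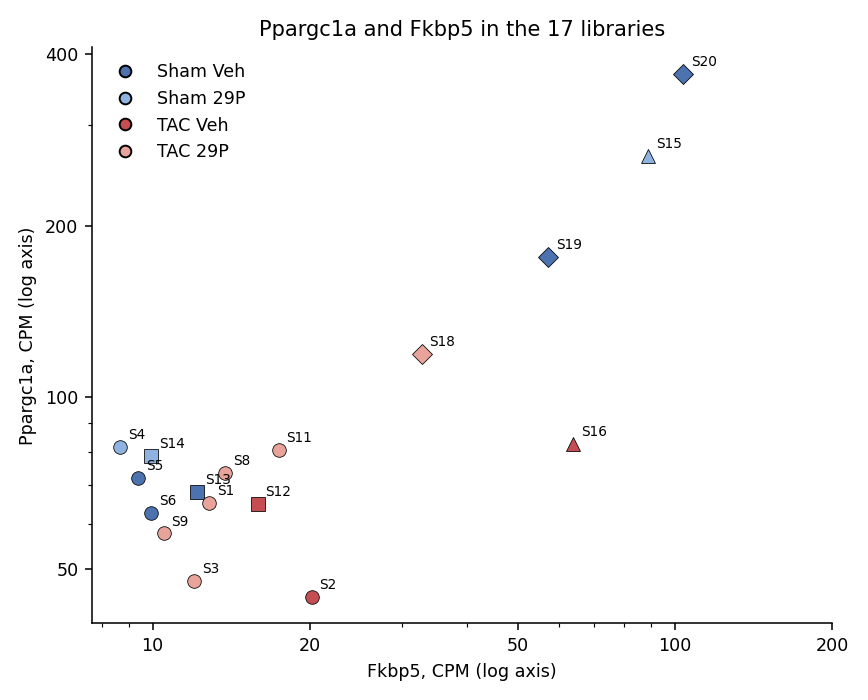
CPM of Ppargc1a against Fkbp5 on log axes in the 17 libraries, coloured by group and with symbols for runs of animal numbers as in the plot of the 10 regulators. S19, S15 and S20 stand at the upper right, and S16 has 63.9 CPM of Fkbp5 and 82.8 CPM of Ppargc1a. Group means are not removed here.

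The deviations of Ppargc1a were also related to those of the 9 other regulators, with permutation p values from 100000 permutations. Over all 17 libraries the strongest relation was with Tfam (Pearson's r = −0.536, permutation p = 0.0267, Spearman's rho = −0.50, permutation p = 0.0433, n = 17), and it did not pass adjustment over the 9 relations (adjusted permutation p = 0.241 and 0.389). Without the 2 libraries farthest from the median, S15 and S20, r was −0.333 for Tfam and −0.581 for Esrrb, which was at −0.235 with all 17, so that the order of the relations rested on those 2 libraries. For the remaining regulators r over the 17 libraries ranged from −0.292 (Esrrg) to 0.374 (Ppara), and it was 0.00 with Esrra, a receptor that PGC-1α coactivates.

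Tfam varied least of the 10, by 1.22-fold between its lowest and highest library. It was at 44.8, 42.5, 38.8, 41.4 and 40.0 CPM in Sham Veh (S5, S6, S13, S19, S20), 44.6, 45.5 and 39.3 in Sham 29P (S4, S14, S15) and 42.9, 42.5 and 40.0 in TAC Veh (S2, S12, S16). TAC 29P libraries had 43.4 to 47.5 CPM with a median of 44.2. On the CPM scale the surgery change over both treatments was 0.04 (95% interval −0.09 to 0.16, limma adjusted p = 0.619). On the TMM scale, where the median gene was level, it was −0.31 (standard error 0.08, limma adjusted p = 0.00717). Totals taken without the mitochondrial-encoded genes gave −0.13 (limma adjusted p = 0.145). The direction of the Tfam change therefore rested on the scaling.

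Of the 3 estrogen-related receptors, Esrra was at 90.8, 43.5, 80.1, 51.5 and 75.9 CPM in Sham Veh, 108, 38.1 and 68.6 in Sham 29P and 81.4, 91.2 and 60.9 in TAC Veh, with 67.9 to 106 CPM (median 83.2) in TAC 29P. The groups overlapped, and the change over both treatments was 0.28 (standard error 0.19, limma adjusted p = 0.221) on the CPM scale and −0.06 on the TMM scale. Esrrb, at 8.71 to 21.9 CPM over the 17 libraries, was 0.31 higher after TAC over both treatments without being called (standard error 0.15, limma adjusted p = 0.0846), and −0.04 on the TMM scale. With treatments pooled, its TAC minus Sham difference was 0.34 (exact permutation p = 0.0226), and 8 of 9 TAC libraries lay above the Sham median. Both are on the CPM scale, where the median gene was 0.36 higher over both treatments. Esrrg was at 40.7, 30.5, 33.9, 24.7 and 30.8 CPM in Sham Veh, 36.9, 52.4 and 33.4 in Sham 29P and 30.5, 36.9 and 33.1 in TAC Veh, with 30.4 to 42.3 CPM (median 38.9) in TAC 29P. Its change over both treatments was −0.01 (standard error 0.11, limma adjusted p = 0.930) on the CPM scale and −0.36 (standard error 0.13, limma adjusted p = 0.0450) on the TMM scale, so it was called lower on the TMM scale and not on the CPM scale.

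Ppara, the main fatty acid sensor among the PPARs of heart muscle, was at 11.6, 3.40, 9.84, 10.5 and 13.2 CPM in Sham Veh (S5, S6, S13, S19, S20), 15.4, 14.2 and 12.2 in Sham 29P (S4, S14, S15) and 12.02, 17.4 and 8.32 in TAC Veh (S2, S12, S16). TAC 29P libraries had 8.76 to 15.6 CPM with a median of 13.5. The TAC Veh libraries included both the highest of the 17 values and the second lowest, and the surgery change was 0.44 in Veh mice (standard error 0.35, limma adjusted p = 0.337) and −0.16 in 29P mice (standard error 0.34, limma adjusted p = 0.732). Without S6 the change in Veh mice was 0.10. The difference between these changes was −0.61 (standard error 0.48, limma adjusted p = 0.998). Ppargc1b had 3.89 to 11.5 CPM and Perm1 137 to 259 CPM over the 17 libraries. Their changes over both treatments were 0.24 (standard error 0.19) and 0.11 (standard error 0.12) on the CPM scale and −0.11 and −0.24 on the TMM scale, called on neither (limma adjusted p = 0.305 and 0.443, and 0.650 and 0.0799).

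Several of the regulators rose and fell together from library to library. Across the deviations from group means of the 17 libraries, Pearson's r was 0.942 between Esrra and Ppard, 0.926 between Esrra and Rxra, 0.930 between Ppard and Rxra and 0.900 between Perm1 and Esrra. They are given as descriptions over libraries that differ in depth and run of animal numbers. Esrrg (0.02) and Tfam (−0.02) did not follow Esrra. The lowest 3 libraries for Esrra, Ppard, Rxra, Perm1 and Ppargc1b were in each case S6, S14 and S19, which also had the highest shares of mitochondrial-encoded transcripts (38.8, 40.0 and 35.2%) among the 17. These 3 are all Sham libraries. Without S6 and S14, but with S19 kept, Ppard was still called over both treatments at 0.45 (limma adjusted p = 0.0273), whereas the change of Esrra in 29P mice went from 0.34 to −0.05. No fit left out all 3. What part the composition of these libraries had in the shared pattern was not tested.

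**Figure D4:**
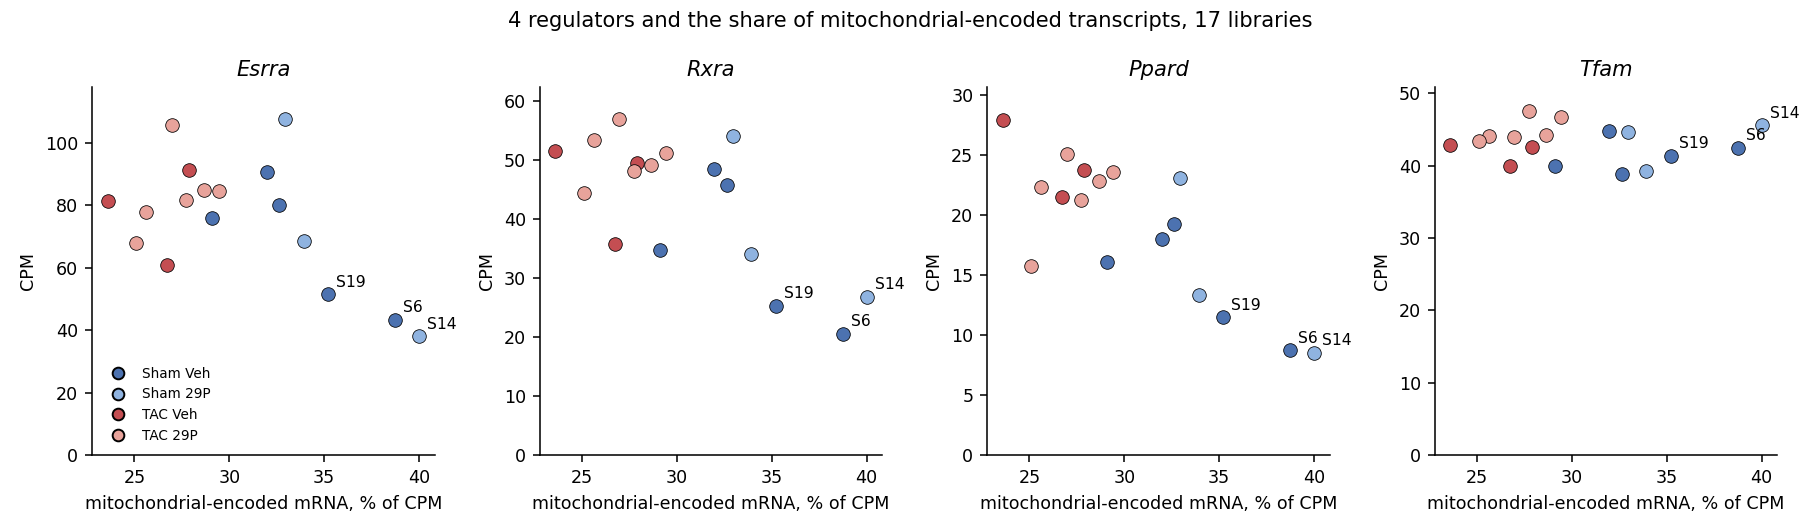
CPM of Esrra, Rxra, Ppard and Tfam (linear axes from 0) against the percent of CPM from mitochondrial-encoded transcripts in the 17 libraries, coloured by group. S6, S14 and S19 have the highest shares (35.2 to 40.0%) and the lowest Esrra, Rxra and Ppard, and Tfam stays within 38.8 to 47.5 CPM.

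By the same measure the genes most like Esrra were Fastk (r = 0.981, rho = 0.971), Rab1b (0.978 and 0.966) and Gm10874 (0.978 and 0.966), and those most like Perm1 were Gys1, Pygm and Cox10 (r = 0.973, 0.972 and 0.971). For Esrrg they were Fbxo3 (0.977 and 0.958), Mtm1 (0.925 and 0.897) and Otud4 (0.917 and 0.912), and for Ppara Pgm5 (0.933 and 0.826), Myocd (0.919 and 0.890) and Atp11a (0.912 and 0.919). No gene was named for more than 1 regulator.

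The effect of 29P within TAC was then examined, at an unadjusted limma p of 0.05 or less. Of the 10 regulators, 0 were called between TAC 29P and TAC Veh, against 1.05% of all genes called higher and 0.931% lower. The limma p values ran from 0.219 (Tfam) to 0.898 (Ppara), and every adjusted p was 1. The 29P change was 0.19 for Ppargc1a (95% interval −0.85 to 1.23), 0.19 for Ppargc1b (−0.37 to 0.75), 0.07 for Perm1 (−0.27 to 0.42) and −0.17 for Ppard (−0.74 to 0.40). It was 0.11 for Esrra (−0.45 to 0.68), 0.16 for Esrrg (−0.18 to 0.49) and 0.04 for Ppara (−0.66 to 0.75). The intervals leave room for changes of either sign, and that of Ppargc1a for a change of more than 1 on the log2 scale.

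Tfam was the regulator whose TAC groups did not overlap. All 6 TAC 29P libraries (43.4 to 47.5 CPM) lay above all 3 TAC Veh libraries (40.0 to 42.9 CPM), as did those of 0.839% of all genes tested. The difference was 0.11 on the log2 scale (95% interval −0.07 to 0.28, 1.08-fold), with a limma p of 0.219 and an exact two-sided permutation p of 0.0238, where 84 divisions of the libraries allow 0.0119 at the smallest. The permutation p is 1 of 10 in this comparison and does not pass adjustment for that number, and once the runs were in the fit the difference was 0.04.

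In Sham mice 0 regulators were called with 29P, against 7.49% of all genes in either direction. The changes closest to the threshold were those of Esrrg (0.34, standard error 0.16, limma p of 0.0535, adjusted p = 0.671, highest in S14) and Ppara (0.65, standard error 0.35, limma p of 0.0774, adjusted p = 0.688). Ppara passed the unadjusted threshold on the TMM scale (0.69, limma p of 0.0456) and with the runs in the fit (0.98, limma p of 0.0158), and without S6, at 3.40 CPM, the change was 0.31. The surgery change under 29P did not differ from that under vehicle for any of the 10 at an unadjusted p of 0.05 (lowest limma p of 0.225, for Ppara), against 2.84% of all genes.

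The other genes of the pathway were taken as 7 lists from textbook knowledge, with counts read against the same shares of all genes. The lists were chosen with earlier results of these data known. The study had already reported Acot2, Acadm and Hadha from these libraries as lower after TAC and partly restored with 29P. Their counts here are therefore no independent support. Of 16 partners and corepressors 3 were called higher in TAC Veh against Sham Veh and 0 lower, a share below the 22.5% of all genes called higher, with a median change of 0.27 (median of all genes 0.35). They included the acetyltransferases Ep300 (0.44, standard error 0.14, limma adjusted p = 0.0298) and Crebbp (0.34, limma adjusted p = 0.0477), and under TMM 0 of the 16 were called higher and 1 lower. Of 18 upstream kinases and factors 5 were called higher and 0 lower, near the same 22.5%, with a median of 0.44. Those with the largest changes were Camkk2, a kinase that activates AMPK (0.99, standard error 0.19, limma adjusted p = 0.00395), Prkab2, an AMPK subunit (0.75, limma adjusted p = 0.00152), Tead1 (0.63) and Yy1 (0.48), a partner of PGC-1α. Camkk2 and Prkab2 were also called under TMM (0.66 and 0.41), and no other gene of this list was. In TAC 29P against Sham 29P the calls were 3 higher of 16 and 4 higher of 18, again with 0 lower, both shares below the 31.4% of all genes called higher. Under TMM they became 0 in either direction of 16, and 0 higher and 3 lower of 18.

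Among the 4 nuclear respiratory factor genes Gabpb2 was called higher in TAC Veh mice (0.47, limma adjusted p = 0.0198), and 2 of 4 were called higher in TAC 29P mice, against 22.5% and 31.4% of all genes. Under TMM 0 of the 4 were called higher in either comparison (Gabpb2 0.14 in TAC Veh mice, limma adjusted p = 0.405), and Gabpa was called lower in TAC 29P mice (−0.45, limma adjusted p = 0.0288). Of 17 genes that transcribe or maintain mitochondrial DNA 1 was called higher, the protease gene Lonp1 (0.55, limma adjusted p = 0.0172), with a median of 0.04, and 1 in TAC 29P mice, both well below the shares of all genes. Under TMM 0 of the 17 were called higher and 2 lower in each comparison, with a median of −0.30 in TAC Veh mice. The 13 mitochondrial-encoded mRNAs all had a negative change in TAC Veh mice, with a median of −0.38, and 6 of 13 were called lower, among them mt-Nd3 (−0.96), mt-Co2 (−0.50), mt-Nd1 (−0.50) and mt-Co3 (−0.49). In TAC 29P mice 8 of 13 were called lower with a median of −0.43. Of all genes, 1.91% were called lower in TAC Veh and 1.12% in TAC 29P mice. Under TMM the medians were −0.72 and −0.79. TMM moved surgery changes down, so it could not test a direction that was already negative on the CPM scale.

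Some target genes of the receptors were lower after TAC. Of 23 PPAR target genes that passed the filter (25 listed), 6 were called lower in TAC Veh mice and 0 higher, with a median of −0.38 against 0.35 for all genes. Of all genes tested, 1.91% were called lower and 22.5% higher. Acot1, a cytosolic acyl-CoA thioesterase, had 5.74 to 15.7 CPM in Sham Veh (median 12.95) and 1.77 to 2.56 CPM in TAC Veh (median 2.40), a change of −2.33 (standard error 0.38, limma adjusted p = 0.00155). Its mitochondrial relative Acot2 changed by −0.63 (limma adjusted p = 0.0316), and the fatty acid oxidation genes Hadhb and Acadm by −0.55 and −0.50 (limma adjusted p = 0.00190 and 0.00773). Acot1 and Acot2 are close copies, and how reads matching both were counted is not given in the sources used here. Of 23 ERR and PGC-1 target genes 4 were called lower and 0 higher, with a median of −0.20: Cycs, cytochrome c (−0.51), Sdha, a subunit of complex II (−0.37), Idh3a of the citric acid cycle (−0.35) and Ndufs1 of complex I (−0.30). Under TMM 11 of 23 PPAR targets and 16 of 23 ERR and PGC-1 targets were called lower, and 0 of either higher. The shares of all genes were then 5.80% lower and 3.86% higher.

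In TAC 29P against Sham 29P the calls were 4 lower and 2 higher for the PPAR targets, and 2 lower and 0 higher for the ERR and PGC-1 targets. Of all genes 1.12% were called lower and 31.4% higher, so the 2 higher calls were below that share. Under TMM the calls were 9 lower and 0 higher for the PPAR targets, and 11 lower and 0 higher for the others. The shares of all genes were then 4.98% lower and 5.76% higher. In TAC 29P against TAC Veh, which shares the TAC Veh libraries with the first comparison, 1.05% of all genes were higher at an unadjusted limma p of 0.05 or less and 0.931% lower. Treatment and run of animal numbers could hardly be told apart in this comparison, and the list genes are given without the runs in the fit. Of 23 PPAR targets 6 were higher at that threshold and 0 lower, with a median of 0.26 (median of all genes −0.02). They included Acot1 (1.71, limma p of 0.00020), Acot2 (0.59, 0.00729), Acadm (0.26, 0.0305), Hadha (0.29, 0.0368) and the lipid droplet gene Plin5 (0.53, 0.0425), and after adjustment over all genes by Benjamini-Hochberg none of the 6 passed (lowest adjusted limma p of 0.540). The 6 TAC 29P libraries had 5.24 to 10.6 CPM of Acot1 (median 7.09), above all 3 TAC Veh libraries. For Acot1 the surgery change under 29P was less negative than the −2.33 under vehicle, by 1.90 (standard error 0.53, limma p of 0.00213, adjusted p = 0.998). Of the 23 ERR and PGC-1 targets 1, Idh3a, was higher (0.21, limma p of 0.0408). Of the upstream list Prkab2 was lower (−0.31, limma p of 0.0155), of the mitochondrial DNA list Mterf1a was higher (0.49, limma p of 0.0266), and 0 were called among partners, nuclear respiratory factors or mitochondrial-encoded mRNAs.

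**Figure D5:**
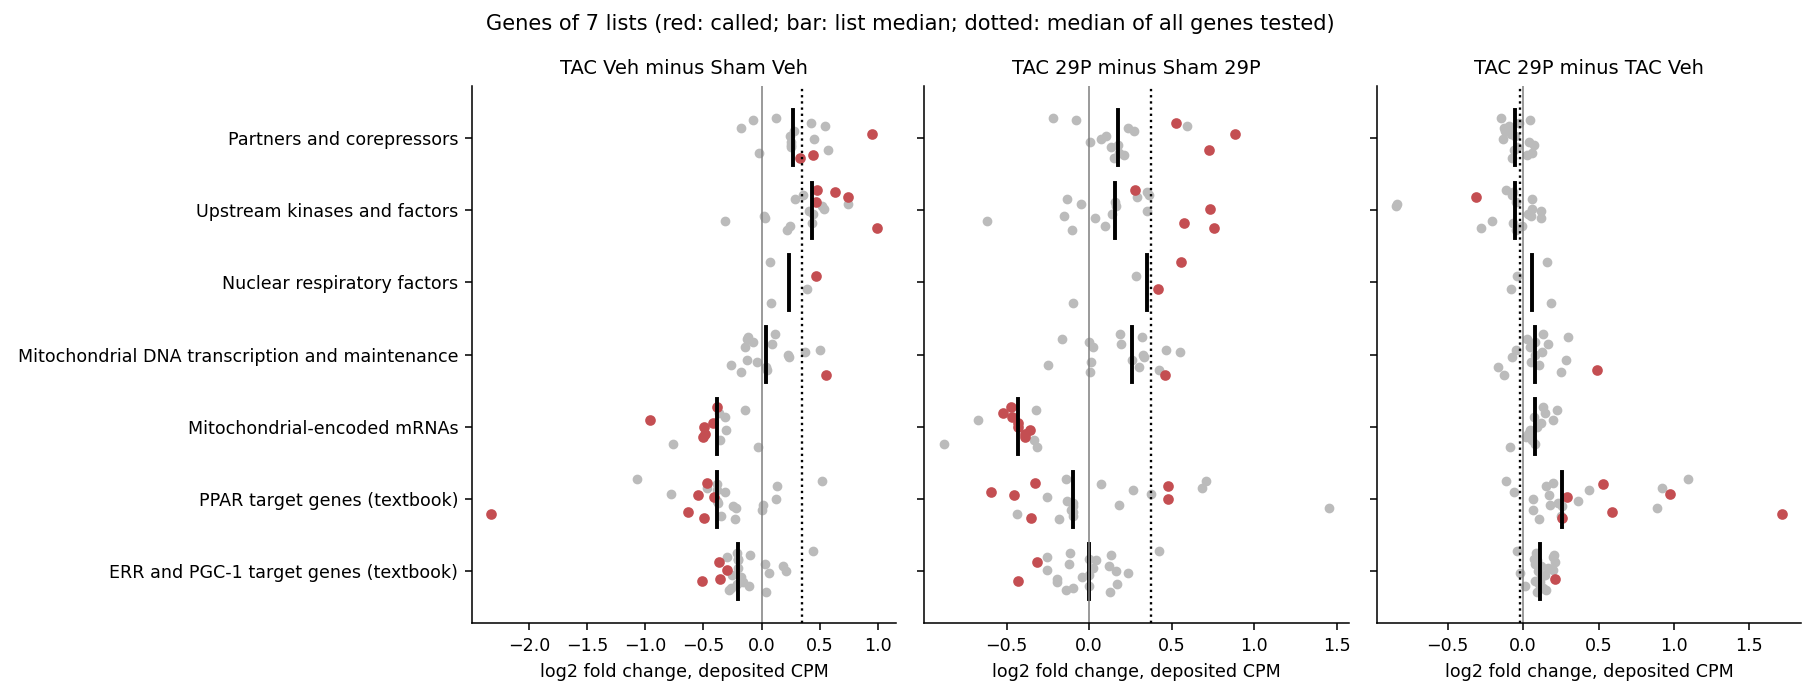
Log2 fold changes on the CPM scale of each gene in 7 lists for 3 comparisons, with bars at list medians and dotted lines at the median of all genes tested. Red points passed an adjusted p of 0.05 in the surgery comparisons and an unadjusted p of 0.05 in TAC 29P against TAC Veh, and red points lie left of 0 for mitochondrial-encoded mRNAs in both surgery comparisons and for both target lists in TAC Veh against Sham Veh.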

How the data were processed

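RNA of 17 left ventricular apices, sequenced in bulk, was analysed. The authors aligned reads to mm10 (STAR 2.3.7, Partek, per the submitters' processing notes) and deposited CPM with 0.0001 added. Read counts could not be recovered, since part of the low values were not whole multiples of the step of 1 read. Depth was estimated from the commonest low value.

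Log2 CPM of genes at 0.5 CPM or more in at least 3 libraries was fitted with limma 3.58.1 (R 4.3.3), with 1 mean per group, a variance trend and Benjamini-Hochberg adjustment. Single genes were also compared by exact permutation in Python 3.11.15 (numpy 2.4.6, pandas 2.3.3). Figures used matplotlib 3.10.9. The model was tested on simulated data. Alternatives were TMM (trimming 30% of log ratios and 5% of levels), median-of-ratios and totals without mitochondrial-encoded genes, other filters, constants of 0.1 and 1, a fit of the compared groups alone, runs of animal numbers as a term, other thresholds, and libraries left out.

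The regulators and lists were chosen with earlier results of these data known. The 10 regulators are always named, with up to 4 genes each way per list (called, mean CPM of at least 1, largest change in TAC Veh minus Sham Veh) and the 3 genes most like 5 regulators. The 5 PPAR targets, Idh3a, Prkab2 and Mterf1a in TAC 29P minus TAC Veh, and Gabpa, were named after their values were seen. Of the called genes of the lists, 2 that this rule or comparison would name are not reported here. The 6-week endpoint was not analysed here.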

Additional observations from a re-analysis of the deposited data

Results flagged for a closer look

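In 2 of the 20 combinations of regulator and group that hold 5 or 6 libraries, 1 library stood apart from the rest by Dixon's criterion, where chance gives about 1 in 20. Ppara was at 3.40 CPM in library S6 of Sham Veh, where the 4 other libraries had 9.84 to 13.2 CPM and the gap took 0.784 of the range on the log2 scale. S6 was also the library with the lowest Rxra and Perm1 and the second highest share of mitochondrial-encoded transcripts. Ppard was at 15.7 CPM in library S18 of TAC 29P, where the 5 other libraries had 21.2 to 25.1 CPM and the gap took 0.644 of the range. S18 was the TAC library rich in atrial transcripts. The cause of either value was not tested.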

How the results depend on the processing

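Over all alternatives, 943 log2 changes of the 10 regulators kept their sign and their side of the threshold, 37 lost a call, 39 gained one and 131 changed sign. The fits without S6 and S14, with S1 to S14 alone and with TMM and the runs together were chosen after seeing the data. Adding 0.1 or 1 before the log, and requiring 0.5 CPM in every library, moved no count of regulators called. The cause of the changes was not tested, apart from the scale, whose shift of all genes is given in the report. The numbers of regulators called moved as follows. For TAC Veh against Sham Veh, 1 higher in the report became 0 under TMM, with totals free of mitochondrial-encoded genes, under median-of-ratios, with no filter, with the runs as a term, without S18, S19 and S20, with libraries S1 to S14, under TMM with the runs as a term and with the compared groups alone, 0 to 1 with 1 library left out, and 0 lower in the report became 1 under TMM with the runs as a term. For TAC 29P against Sham 29P, 0 higher in the report became 1 at an unadjusted p of 0.05, 0 to 3 with 1 library left out, and 0 lower in the report became 1 without S18, S19 and S20. For TAC against Sham over both treatments, 2 higher in the report became 0 under TMM, under median-of-ratios and under TMM with the runs as a term, 1 with totals free of mitochondrial-encoded genes, with no filter, with the runs as a term, without S18, S19 and S20 and without S6 and S14, 1 to 3 with 1 library left out, and 0 lower in the report became 1 with totals free of mitochondrial-encoded genes, with the runs as a term, without S6 and S14 and at an unadjusted p of 0.05, 3 under TMM, under median-of-ratios and under TMM with the runs as a term, 0 to 1 with 1 library left out. For Sham 29P against Sham Veh, 0 higher in the report became 1 under TMM, with no filter, with the runs as a term, with libraries S1 to S14 and under TMM with the runs as a term, 2 with totals free of mitochondrial-encoded genes, under median-of-ratios and without S18, S19 and S20, 0 to 1 with 1 library left out. Under TMM, log2 changes of the opposite sign were, for TAC Veh against Sham Veh −0.16 for Ppargc1b, −0.20 for Perm1, −0.12 for Esrra, −7.3e-05 for Esrrb, −0.26 for Esrrg and −0.33 for Tfam, for TAC 29P against Sham 29P −0.058 for Ppargc1b, −0.27 for Perm1, −0.013 for Esrra, −0.079 for Esrrb and −0.29 for Tfam, for TAC against Sham over both treatments −0.11 for Ppargc1b, −0.24 for Perm1, −0.065 for Esrra, −0.040 for Esrrb, −0.21 for Ppara and −0.31 for Tfam, for Sham 29P against Sham Veh 0.036 for Esrra and 0.011 for Ppard. With totals free of mitochondrial-encoded genes, log2 changes of the opposite sign were, for TAC Veh against Sham Veh −0.019 for Perm1, −0.078 for Esrrg and −0.14 for Tfam, for TAC 29P against Sham 29P −0.095 for Perm1 and −0.12 for Tfam, for TAC against Sham over both treatments −0.057 for Perm1, −0.025 for Ppara and −0.13 for Tfam, for Sham 29P against Sham Veh 0.039 for Esrra and 0.014 for Ppard. Under median-of-ratios, log2 changes of the opposite sign were, for TAC Veh against Sham Veh −0.15 for Ppargc1b, −0.19 for Perm1, −0.10 for Esrra, −0.25 for Esrrg and −0.31 for Tfam, for TAC 29P against Sham 29P −0.062 for Ppargc1b, −0.28 for Perm1, −0.017 for Esrra, −0.083 for Esrrb and −0.30 for Tfam, for TAC against Sham over both treatments −0.11 for Ppargc1b, −0.23 for Perm1, −0.060 for Esrra, −0.035 for Esrrb, −0.20 for Ppara and −0.31 for Tfam, for Sham 29P against Sham Veh 0.048 for Esrra and 0.023 for Ppard. With the runs as a term, log2 changes of the opposite sign were, for TAC 29P against Sham 29P −0.0069 for Tfam, for TAC 29P against TAC Veh −0.045 for Esrra, −0.036 for Esrrb and −0.069 for Ppara, for Sham 29P against Sham Veh −0.10 for Ppargc1b and 0.034 for Esrra. Without S18, S19 and S20, log2 changes of the opposite sign were, for TAC Veh against Sham Veh −0.016 for Ppargc1b, −0.057 for Esrrg and −0.0073 for Tfam, for TAC 29P against TAC Veh −0.023 for Ppara, for Sham 29P against Sham Veh −0.12 for Ppargc1b and −0.0021 for Esrrb. Without S6 and S14, log2 changes of the opposite sign were, for TAC 29P against Sham 29P −0.065 for Perm1, −0.049 for Esrra and 0.089 for Esrrg, for TAC against Sham over both treatments −0.025 for Perm1, 0.076 for Esrrg and −0.021 for Ppara, for Sham 29P against Sham Veh 0.24 for Esrra and 0.14 for Ppard. With libraries S1 to S14, log2 changes of the opposite sign were, for TAC Veh against Sham Veh −0.050 for Esrrg, for TAC 29P against TAC Veh −0.0079 for Perm1, −0.065 for Esrrb and −0.29 for Ppara, for Sham 29P against Sham Veh −0.32 for Ppargc1b. Under TMM with the runs as a term, log2 changes of the opposite sign were, for TAC Veh against Sham Veh −0.37 for Ppargc1b, −0.25 for Perm1, −0.11 for Esrra, −0.038 for Esrrb, −0.35 for Esrrg and −0.32 for Tfam, for TAC 29P against Sham 29P −0.23 for Perm1, −0.12 for Esrra, −0.14 for Esrrb and −0.31 for Tfam, for TAC against Sham over both treatments −0.15 for Ppargc1b, −0.24 for Perm1, −0.11 for Esrra, −0.091 for Esrrb, −0.087 for Ppara and −0.31 for Tfam, for Sham 29P against Sham Veh −0.094 for Ppargc1b and 0.041 for Esrra. With 1 library left out in turn, changes that reached the opposite sign ranged, for TAC Veh against Sham Veh −0.012 to 0.042 for Tfam, −0.068 to 0.32 for Ppargc1b and −0.013 to 0.17 for Esrrg, for TAC 29P against Sham 29P −0.065 to 0.18 for Perm1, −0.049 to 0.70 for Esrra, −0.24 to 0.089 for Esrrg and −0.0041 to 0.10 for Tfam, for TAC against Sham over both treatments −0.079 to 0.083 for Esrrg and −0.031 to 0.27 for Ppara, for TAC 29P against TAC Veh −0.049 to 0.40 for Ppargc1a, −0.032 to 0.18 for Perm1, −0.053 to 0.24 for Esrra, −0.12 to 0.21 for Esrrb, −0.22 to 0.31 for Ppara and −0.0035 to 0.26 for Rxra, for Sham 29P against Sham Veh −0.52 to 0.48 for Ppargc1a, −0.36 to 0.38 for Esrra, −0.40 to 0.32 for Ppard, −0.13 to 0.37 for Rxra, −0.17 to 0.33 for Ppargc1b and −0.029 to 0.25 for Esrrb. No paired analysis was made. The replicate numbers are the library numbers, which differ for every library and so do not tell of pairs. Ppara and Ppargc1b, with about 76.2 and 79.1 reads in their lowest library, were the least precisely counted.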
